A study of Mus musculus with 6 samples.

Results

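Mitochondrial fatty acid oxidation was examined through 10 genes of its core: Cpt1b, Slc25a20 and Cpt2, which bring long-chain acyl groups into mitochondria, Acadvl, Acadl, Acadm, Hadha, Hadhb and Hadh, which carry out the oxidation cycle, and Etfdh, which passes its electrons to the respiratory chain. The members were the probes that were not controls and whose RefSeq accession belongs to 1 of these 10 genes, which gave 12 of the 55681 probes on the array and 10 of the 20900 genes that could be tested. RNA came from the gastrocnemius, a mostly fast-twitch calf muscle, of male C57BL/6J mice, with 3 young mice at 13 weeks of age and 3 aged mice at 26 months of age. No treatment or genetic change was part of the comparison, which asked how muscle transcripts differ with age. Each mouse gave 1 Cy3-labelled sample on 1 Agilent array, so each group has 3 animals and no mouse was measured more than once. In whole muscle, fewer cells of a type and less RNA per cell cannot be told apart.

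Long-chain fatty acids enter mitochondria as carnitine esters. Carnitine palmitoyltransferase 1 on the outer membrane, a carnitine carrier in the inner membrane and carnitine palmitoyltransferase 2 on its matrix side act in turn. Inside, each round of beta-oxidation consists of a dehydrogenation by an acyl-CoA dehydrogenase, a hydration, a second dehydrogenation and a thiolytic cleavage that releases acetyl-CoA and leaves a shorter acyl chain. Muscle relies on this route at rest and in long exercise, and slow, oxidative fibres hold more of its enzymes than fast, glycolytic fibres. Many of these genes are targets of the nuclear receptors PPAR alpha and ERR alpha and of their coactivator PGC-1 alpha.

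In aged mice the mean level was lower than in young mice for 9 of the 10 genes, and the exception was Slc25a20. None of the 10 differences passed the threshold of an adjusted p under 0.05 (limma with Benjamini-Hochberg adjustment over 20900 genes), which 0.254% of all genes passed in either direction and 0.0574% passed as lower in aged mice. The median log2 difference of the 10 genes was -0.44, beside -0.06 over all genes tested, of which 56.9% were lower. For most of the 10 genes the lower values belonged to aged mice 2 and 3, while for Cpt2 aged mouse 1 was the lowest. In aged mouse 1 the median of the 10 genes was 0.07 below the young mean on the log2 scale, whereas the other aged mice were 0.49 and 0.55 below it. Cpt2 and Etfdh were the 2 genes with every aged mouse below every young mouse, beside 13.9% of all genes tested.

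Signals are given as the log2 of the processed spot intensity relative to the 75th percentile of the array, so that 0 is that percentile and 1 unit is a factor of 2. Differences are aged minus young on the same scale. The arrays shared 1 slide and 1 scan. All young samples and aged mouse 1 lay in row 1 of the slide, and aged mice 2 and 3 lay in row 2. Row and age therefore cannot be told apart for aged mice 2 and 3. The comparison within row 1, which rests on aged mouse 1 alone, is given for each of the 10 genes and for many of the other genes described. Per array, 48.7% to 53.8% of probes exceeded the background by the margin of the scanner software, which is called well above background here, and no probe was saturated. The array of aged mouse 1 stood apart, with the highest share (53.8%) and a negative control signal of 61.3 against 51.9 to 55.1 on the others. When limma weighted arrays by their scatter, it had the lowest weight, 0.45. Young mouse 3 had 0.53 and the other arrays 1.16 to 2.04. All 12 member probes were well above background on all 6 arrays, each from 1 spot per array. The mean signals of the 10 genes lay between 2.22 and 8.14. Among the 6511 genes tested in that range the median difference was -0.08, 61.3% were lower in aged mice and 17.0% had every aged value below every young value. All members but Slc25a20 had a mean signal of 4.56 or more, and brighter genes were lower in aged mice more often. The share was 62.5% at a mean signal of 4 to 6, 70.7% at 6 to 8 and 88.4% from 8 up. In these ranges every aged value lay below every young value for 17.9%, 22.5% and 22.9% of genes.

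**Figure D1:**
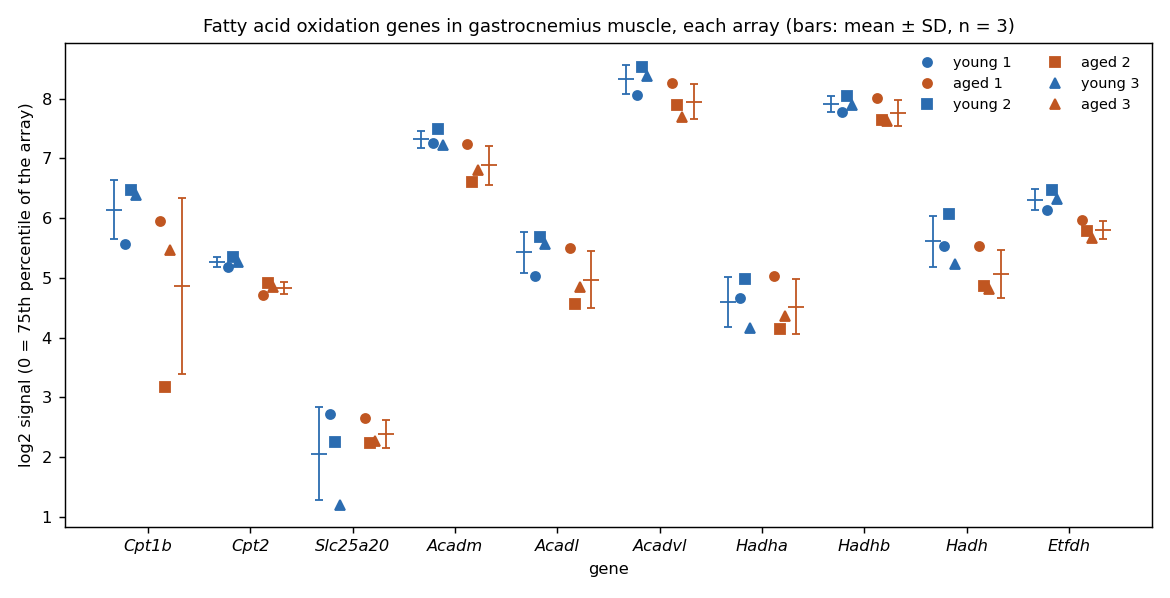
Log2 signal of each of the 10 genes on each array (vertical axis, 0 is the 75th percentile of the array), with young mice in blue and aged mice in orange, a marker shape for each replicate number, and bars for the mean ± SD of 3 mice. The circle of aged mouse 1 lies among the young values for most genes, and the square of aged mouse 2 for Cpt1b, at 3.18, is the value farthest from its group.

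The entry step was represented first by Cpt1b, the muscle form of carnitine palmitoyltransferase 1 and the step at which malonyl-CoA controls fatty acid entry. Its log2 signal was 5.57, 6.47 and 6.38 in the 3 young mice, in the order of their numbers, and 5.95, 3.18 and 5.47 in the 3 aged mice. Aged mouse 1 lay between the young values, aged mouse 3 just under the lowest of them, and aged mouse 2 far below all other mice. The mean was 6.14 ± 0.50 (SD, n = 3) in young and 4.86 ± 1.48 in aged mice, a difference of -1.28 with a standard error of 0.70 (95% interval -2.95 to 0.40, limma adjusted p = 0.449). Without aged mouse 2 the difference was -0.43, and within row 1 it was -0.19.

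A second probe for the same Cpt1b transcript did not share the low value. It read 3.88, 4.52 and 4.10 in young mice and 3.99, 3.60 and 3.62 in aged mice, a difference of -0.43. Aged mice 2 and 3 lay close together there and below every young mouse, and aged mouse 1 lay between the young values. The size of the Cpt1b difference thus depended on the probe and on 1 spot of 1 array. In RefSeq the gene also lies within a readthrough transcript that joins Chkb and Cpt1b, and the probes were not resolved between these transcripts.

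**Figure D2:**
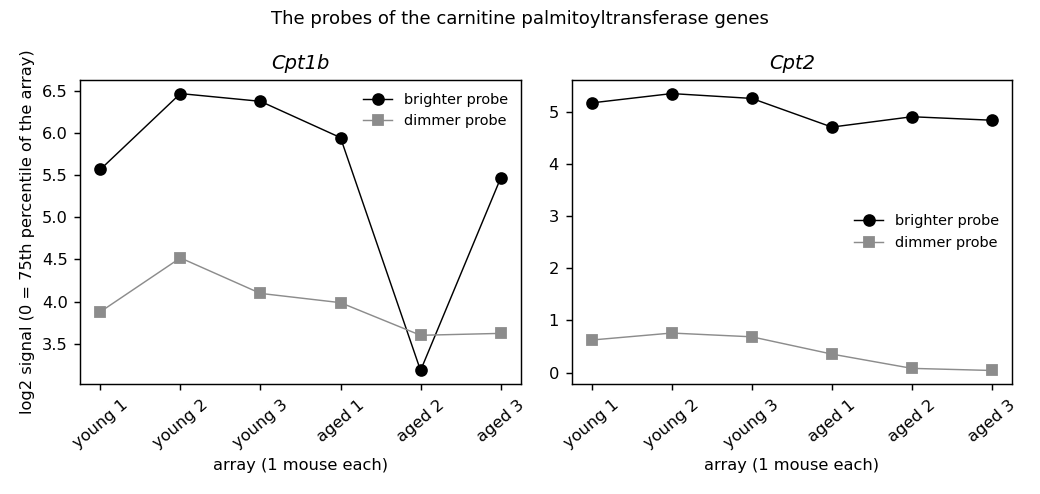
Log2 signal (0 is the 75th percentile of the array) of both probes of Cpt1b and both probes of Cpt2 on each of the 6 arrays, with the brighter probe in black and the dimmer in grey and lines that only follow a probe. The brighter Cpt1b probe reads 3.18 in aged mouse 2 where the other probe reads 3.60, while both Cpt2 probes read lower in all 3 aged mice than in any young mouse.

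Slc25a20, the carnitine-acylcarnitine translocase of the inner membrane, was the 1 gene with a higher mean in aged mice. Its log2 signal was 2.72, 2.25 and 1.20 in young mice and 2.65, 2.24 and 2.27 in aged mice. The 3 aged mice lay within the range of the young mice, and young mouse 3 was the lowest of all. The difference was 0.33 with a standard error of 0.38 (95% interval -0.59 to 1.24, limma adjusted p = 0.719). Without young mouse 3 it was -0.10, and within row 1 it was 0.59.

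Cpt2, carnitine palmitoyltransferase 2, which returns the acyl group from carnitine to coenzyme A in the matrix, read 5.18, 5.36 and 5.26 in young mice and 4.71, 4.91 and 4.85 in aged mice. No aged mouse reached the lowest young mouse, and the spread in either group was small. The mean was 5.27 ± 0.09 in young and 4.82 ± 0.10 (SD, n = 3) in aged mice, or 0.736 times the young level. The difference was -0.44 with a standard error of 0.15 (95% interval -0.80 to -0.08), and its adjusted p of 0.279 in limma missed the threshold. Aged mouse 1 was the lowest of the 3 aged mice, so the difference within row 1 was -0.55. A second Cpt2 probe read 0.62, 0.76 and 0.69 in young mice and 0.35, 0.08 and 0.04 in aged mice. The groups did not overlap on this probe either, and the difference was -0.53.

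The bases just before the start site of Cpt2 are shown as a description, and a link between them and the signals was not tested. The stretch covers 150 bases before the RefSeq start of Cpt2 on GRCm38.p6, chr4:107923590-107923739, minus strand, written 5′ to 3′. Capitals mark GGGCGG, the GC box recognised by Sp1-type factors, which stands at positions -65 and -38 relative to the start.
Cpt2: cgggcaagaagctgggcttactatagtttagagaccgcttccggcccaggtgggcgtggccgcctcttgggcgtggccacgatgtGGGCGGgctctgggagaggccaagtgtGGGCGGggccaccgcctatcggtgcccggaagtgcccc

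The first dehydrogenation of each round is made by acyl-CoA dehydrogenases that differ in the chain length they prefer. Acadvl, the very long-chain enzyme bound to the inner membrane, read 8.05, 8.54 and 8.37 in young mice and 8.27, 7.89 and 7.69 in aged mice. Aged mouse 1 lay between the young values and the other aged mice lay below all of them. The difference was -0.37 with a standard error of 0.22 (95% interval -0.89 to 0.15, limma adjusted p = 0.477), and within row 1 it was -0.05.

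Acadl, the long-chain enzyme, read 5.04, 5.69 and 5.56 in young mice and 5.49, 4.57 and 4.85 in aged mice. As for Acadvl, aged mouse 1 lay among the young and aged mice 2 and 3 lay below them. The difference was -0.46 with a standard error of 0.29 (95% interval -1.16 to 0.24, limma adjusted p = 0.509). Within row 1 it was 0.07, on the other side of 0.

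Acadm, the medium-chain enzyme whose loss causes the most common inherited defect of this pathway in people, read 7.25, 7.48 and 7.23 in young mice and 7.24, 6.60 and 6.80 in aged mice. Aged mouse 1 stood level with young mice 1 and 3, and aged mice 2 and 3 were below every young mouse. The young mean was 7.32 ± 0.14 and the aged mean 6.88 ± 0.33 (SD, n = 3), so the aged level was 0.738 times the young level. The difference was -0.44 with a standard error of 0.21 (95% interval -0.94 to 0.06, limma adjusted p = 0.399), and within row 1 it was -0.08.

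Acadm and Acadvl were the members with a match to AGGTCA, the core site of many nuclear receptors, in their promoter windows. A window held 250 bases before and 50 bases after the RefSeq start on GRCm38.p6, and 9 of the 10 genes had one, all but Cpt1b. The stretch of Acadm is chr3:153944834-153944893, minus strand, the first 60 bases of its window, and that of Acadvl is chr11:70015489-70015548, minus strand, 120 to 61 bases before the start. Both are written 5′ to 3′ along the gene, with the match in capitals, which in Acadm is the reverse complement, TGACCT.
Acadm: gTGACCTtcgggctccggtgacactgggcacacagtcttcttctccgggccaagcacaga
Acadvl: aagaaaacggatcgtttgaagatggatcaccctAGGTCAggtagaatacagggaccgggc

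A match to AGGTCA on either strand was present in 2 of the 9 windows and in 16.2% of 32544 mouse windows of the same length. The longer TCAAGGTCA, which contains AGGTCA and is the extended site of ERR-type receptors, was in none of the 9 and in 0.412% of all windows. The direct repeat of AGGTCA with 1 base between, the form bound by PPAR with RXR, was in none of the 9 and in 0.0399% of all windows. GGGCGG was in 7 of the 9 (Cpt2, Slc25a20, Acadl, Hadha, Hadhb, Hadh and Etfdh) and in 35.9% of all windows. The only match of Hadha is also counted for Hadhb, since their windows share 228 bases. CCAAT was in 2 of the 9 (Hadh and Etfdh) and in 37.4% of all windows, and TATAAA in none of the 9 and in 13.6%. These are exact matches of letters on both strands, which describe the sequence only, and the last 3 motifs were added after the first matches had been seen.

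The remaining steps for long chains are made by the trifunctional protein of the inner membrane, whose alpha subunit (Hadha) carries the hydratase and long-chain hydroxyacyl dehydrogenase activities and whose beta subunit (Hadhb) carries the thiolase. Hadha read 4.67, 4.98 and 4.15 in young mice and 5.03, 4.15 and 4.36 in aged mice. Aged mouse 1 was the highest of all 6 mice and the groups overlapped throughout. The difference was -0.09 with a standard error of 0.31 (95% interval -0.82 to 0.65, limma adjusted p = 0.912). It changed sign without young mouse 2 (0.11), without aged mouse 2 (0.10), within row 1 (0.43) and with normexp background correction (0.03), so no direction is given for Hadha.

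Hadhb read 7.78, 8.04 and 7.90 in young mice and 8.02, 7.63 and 7.63 in aged mice. Aged mouse 1 was close to the highest young mouse, and aged mice 2 and 3 were equal and under the lowest young mouse. The difference was -0.15 with a standard error of 0.18 (95% interval -0.57 to 0.28, limma adjusted p = 0.735), and within row 1 it was 0.11.

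The genes of the 2 subunits are divergent neighbours, with 272 bases between their RefSeq starts on chromosome 5. The 228 bases shared by both promoter windows, chr5:30155003-30155230 on GRCm38.p6, are shown on the plus strand, 5′ to 3′, so that Hadhb starts to the right and Hadha is read leftward from the other end. Capitals mark a GGGCGG at position -90 relative to the start of Hadhb.
Hadha and Hadhb: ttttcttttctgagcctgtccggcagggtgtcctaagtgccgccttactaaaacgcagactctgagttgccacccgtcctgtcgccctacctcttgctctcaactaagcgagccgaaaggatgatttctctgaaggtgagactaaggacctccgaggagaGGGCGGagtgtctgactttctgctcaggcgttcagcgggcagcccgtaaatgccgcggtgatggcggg

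The signals of these neighbours followed each other across the 6 mice (Pearson r = 0.73, and 0.76 after the group means were removed), which is given as a description of 6 arrays that share the same scaling. Hadhb followed Acadl more closely (r = 0.95) and Acadvl nearly as closely (r = 0.93).

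Hadh, the hydroxyacyl-CoA dehydrogenase of the matrix that acts on medium and short chains, read 5.53, 6.07 and 5.24 in young mice and 5.53, 4.86 and 4.81 in aged mice. Aged mouse 1 equalled young mouse 1, and the other aged mice were below every young mouse. The young mean was 5.61 ± 0.42 and the aged mean 5.07 ± 0.40 (SD, n = 3). The difference was -0.55 with a standard error of 0.29 (95% interval -1.24 to 0.15, limma adjusted p = 0.438). Within row 1 it was -0.08.

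Etfdh, the electron transfer flavoprotein dehydrogenase that hands electrons from the acyl-CoA dehydrogenases to ubiquinone, read 6.14, 6.48 and 6.31 in young mice and 5.97, 5.78 and 5.66 in aged mice. All aged mice were under the lowest young mouse, and aged mouse 1 was the nearest to it. The mean was 6.31 ± 0.17 in young and 5.80 ± 0.16 (SD, n = 3) in aged mice, or 0.704 times the young level. The difference was -0.51 with a standard error of 0.17 (95% interval -0.92 to -0.10), and its limma adjusted p of 0.278 was the lowest among the 10 genes. Within row 1 it was -0.34. The 3′ end of Etfdh overlaps that of its neighbour Ppid by a few bases in RefSeq.

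**Figure D3:**
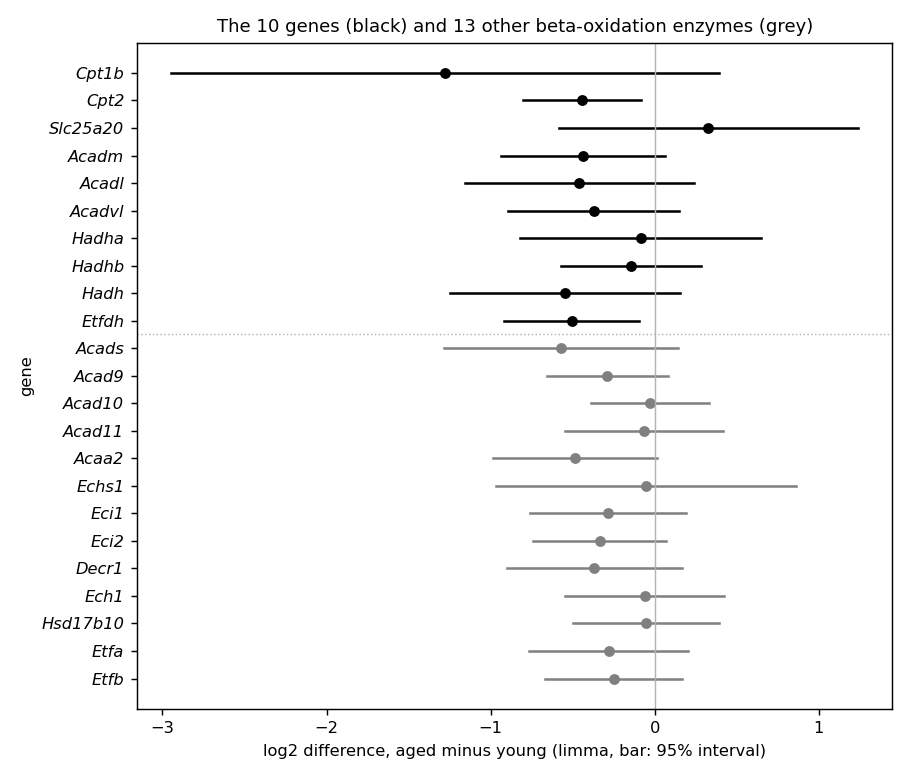
Log2 difference of aged minus young mice with its 95% interval from limma (horizontal axis) for the 10 genes, in black, and for 13 other enzymes of mitochondrial beta-oxidation, in grey. Among the black intervals those of Cpt2 and Etfdh do not reach 0, and all 13 grey points lie to the left of 0 with intervals that cross it.

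Before adjustment over all genes, 2 of the 10 genes had a p under 0.05 in limma, Cpt2 and Etfdh, both lower in aged mice, beside 8.36% of all genes that were lower at that level. No member had every aged mouse above every young mouse, which 7.92% of all genes did. Aged mice 2 and 3 were both below every young mouse in 8 of the 10 genes, all except Slc25a20 and Hadha, beside 23.3% of all genes tested. These mice were singled out after their values had been seen. Aged mouse 1 was below the young mean in 6 of the 10 genes, and aged mice 2 and 3 in 9 each. The summed linear level of the 10 genes, in multiples of the 75th percentile, was 903, 1188 and 1027 in the young mice and 1000, 703 and 723 in the aged mice. Aged mouse 1 lay within the young range and the other aged mice below it.

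**Figure D4:**
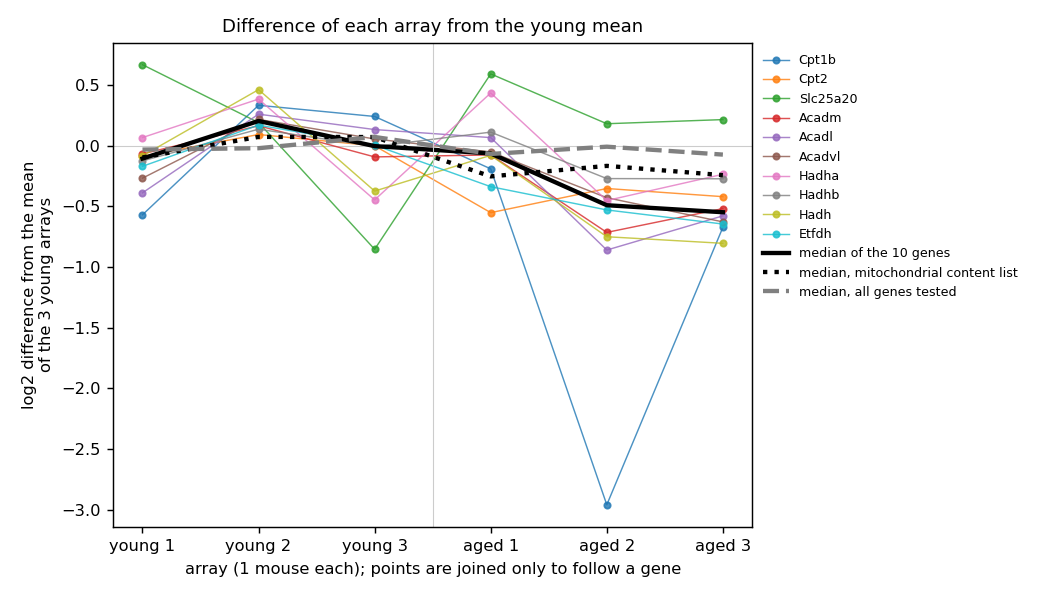
Log2 difference of each array from the mean of the 3 young arrays (vertical axis), with a thin line for each of the 10 genes, a thick black line for their median, a dotted line for the median of 10 mitochondrial content genes and a dashed grey line for the median of all genes tested. The thick line is at -0.07 in aged mouse 1 and at -0.49 and -0.55 in aged mice 2 and 3, while the median of all genes stays between -0.07 and -0.01 in the aged mice.

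Among themselves the 10 genes largely kept the same order of mice. Young mouse 2 was the highest young mouse in 9 of the 10 genes, beside 26.0% of all genes, and aged mouse 1 the highest aged mouse in 9 of the 10, beside 35.9% of all genes. Both held in 8 of the 10 genes and in 15.3% of all genes. Over the 45 pairs of members the median Pearson r across the 6 mice was 0.67, with 37 pairs above 0, and it was 0.62, with 33 pairs above 0, after the group means were removed. These correlations rest on 6 arrays with a common scaling and are a description.

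The gene closest to the mean profile of the 10 was Acadm (r = 0.98), followed by Hadh (0.97), Hadhb (0.93), Acadl (0.91), Acadvl (0.90) and Etfdh (0.88). Cpt1b (0.80), Hadha (0.75) and Cpt2 (0.57) followed it less, and Slc25a20 did not follow it (0.03). Each member is itself part of this profile, which raises its r, unlike genes outside the members. The median r with the single other members was 0.86 for Acadm and 0.46 for Cpt2. Cpt2, whose groups did not overlap, had its lowest aged value in aged mouse 1, where most other members had their highest. Outside the members, Tshz1 (r = 0.99), Arid1b (0.99), Fhl3 (0.99) and Aifm2 (0.99) were among the genes most like the profile, out of 13833 genes with a symbol. Their differences lay between -0.54 and -0.26, and none passed the threshold. Of the genes on the lists described next, Dgat2 ranked 31st, Cd36 35th and Lpl 42nd, each with r = 0.97.

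The rest of the beta-oxidation machinery was read from 13 further enzymes of the mitochondrial cycle. All 13 were lower in aged mice, with a median of -0.28. None passed the threshold, none had an unadjusted p under 0.05 in limma and 2 had no overlap between groups (Acad9 and Eci2). Over all genes tested 56.9% were lower and 13.9% had every aged value below every young value, shares that also stand beside the lists that follow. Most of the 13 had a mean signal of 6 or more. There 70.7% (6 to 8) and 88.4% (from 8 up) of all genes were lower. Among the 13, Acads, the short-chain dehydrogenase, had the largest difference, -0.57 (limma adjusted p = 0.430). It read 0.82 in aged mouse 2 against 1.90 to 2.18 in young mice, and its difference was -0.09 within row 1. Acaa2, the thiolase for medium chains, differed by -0.49 (limma adjusted p = 0.358) and by -0.31 within row 1. Etfa and Etfb, the subunits of the flavoprotein that Etfdh oxidises, differed by -0.28 and -0.25 (0.05 and -0.21 within row 1), and Acad10 by -0.03 (0.07 within row 1). The median of these 13 genes relative to the young mean was -0.04, -0.41 and -0.37 in the aged mice, in order of number, the same division of the aged mice as in the 10 genes.

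Upstream of the mitochondrion, 9 genes of fatty acid uptake and activation were tested, of which 6 were lower, with a median of -0.29, 1 unadjusted p under 0.05 (Acsl3, lower) and no gene past the threshold. Cd36, the fatty acid translocase of the muscle membrane, read 3.72, 4.36 and 3.88 in young mice and 4.15, 3.10 and 3.11 in aged mice, with a difference of -0.53 (limma adjusted p = 0.499). Aged mice 2 and 3 were below the young mice and aged mouse 1 was among them, so that the difference within row 1 was 0.16. Acsl3, which activates long-chain fatty acids, had the most negative difference of the list, -0.86, and Acsl5 of the same family the most positive, 0.39. Within row 1 these were -1.39 and 0.17.

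Of 8 genes that supply carnitine or control malonyl-CoA, 7 were lower, with a median of -0.20 and no unadjusted p under 0.05. Cpt1a, the liver form of carnitine palmitoyltransferase 1, differed by 0.03 and Cpt1c, the brain form, by -0.28 (-0.10 and -0.11 within row 1). The sign of Cpt1a varied with the processing. Among 8 acyl-CoA thioesterases and uncoupling proteins, 4 were lower and the median was 0.02. Acot1, a thioesterase for long-chain acyl-CoA, differed by -0.78 (0.02 within row 1) and Ucp3, the muscle uncoupling protein, by 0.32 (-0.92 within row 1). Ucp3 read 2.92, 2.83 and -0.64 in young mice and 0.78, 2.86 and 2.42 in aged mice, so its sign rested on young mouse 3, without which the difference was -0.85.

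Peroxisomes shorten very long chains by a parallel route, and 10 of its 13 tested genes were lower, with a median of -0.18. Abcd2, a peroxisomal transporter of very long-chain acyl-CoA, read -0.12, -0.08 and 0.38 in young mice and between -1.02 and -0.66 in the 3 aged mice. All of them were below the young, aged mouse 1 too, and the difference of -0.95 had the lowest adjusted p of all 9 lists around the pathway (limma, 0.148). Within row 1 it was -1.05. Acox2, the oxidase for bile acid intermediates and branched chains, was the most positive, 1.32 (limma adjusted p = 0.259), and 2.07 within row 1.

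Triglyceride storage and lipolysis, with 7 of 11 genes lower and a median of -0.08, held the most positive difference of the 9 lists. Angptl4, a fasting-induced inhibitor of lipoprotein lipase and a classical PPAR target, differed by 1.98 (limma adjusted p = 0.322), and Dgat2, which makes triglyceride, by -1.04 (limma adjusted p = 0.370). Within row 1 Angptl4 differed by 1.37 and Dgat2 by -0.11. Angptl4 was 0.90, 3.02 and 0.07 in young and 2.70, 3.00 and 4.22 in aged mice, so young mouse 2 lay within the aged range. All 5 genes of ketone body use were lower, with a median of -0.23. Among them Oxct1, the enzyme that commits muscle to burning ketone bodies, read 7.48, 7.79 and 7.70 in young mice and 7.35, 6.94 and 6.80 in aged mice. Its groups did not overlap and the difference was -0.63 (limma adjusted p = 0.254), or -0.30 within row 1.

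**Figure D5:**
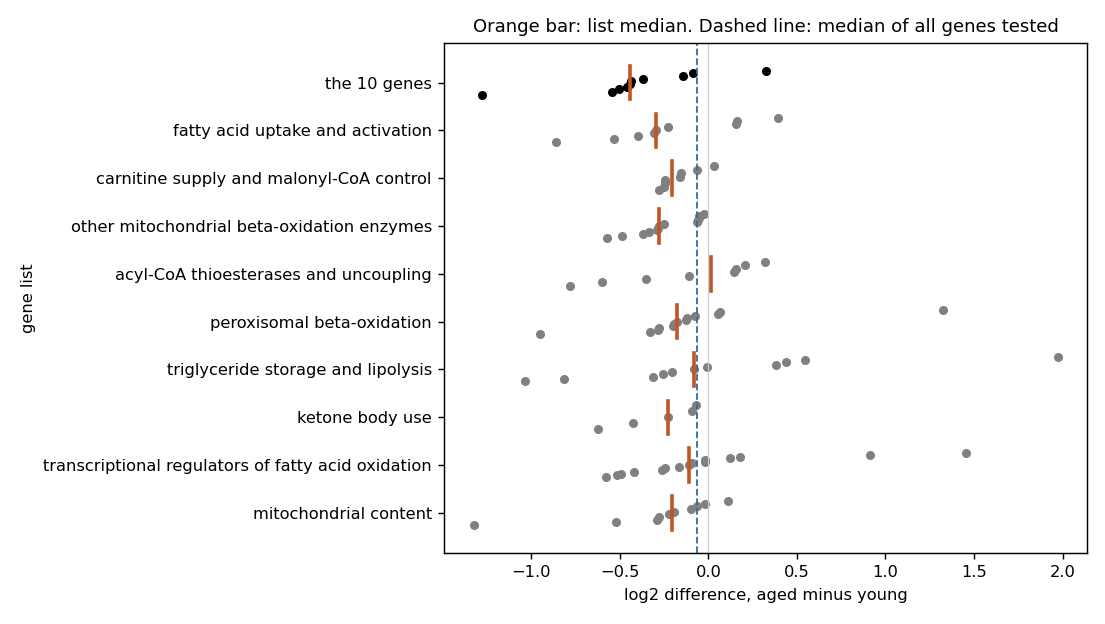
Log2 difference of aged minus young mice (horizontal axis) for each gene of the 10 core genes, in black, and of 9 lists around the pathway, in grey, with an orange bar at the median of each list and a dashed line at the median of all genes tested, -0.06. The median of the 10 genes, -0.44, is the farthest to the left, and the median of the thioesterases and uncoupling proteins, 0.02, is the only one to the right of 0.

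The transcriptional regulators of these genes did not all show the same pattern. Esrra, which encodes ERR alpha, read 6.62, 6.85 and 6.83 in young mice and 6.48, 6.23 and 6.05 in aged mice. The groups did not overlap, and the difference was -0.51 with a standard error of 0.18 (limma adjusted p = 0.285), and -0.29 within row 1. Rxra, a partner of the PPARs, also had no overlap between groups, with a difference of -0.58 (limma adjusted p = 0.232), and -0.53 within row 1. Its mean signal was low, -0.37. Of the other RXR genes, Rxrb (mean signal 5.85) had no overlap either, with a difference of -0.42 (limma adjusted p = 0.332). Rxrg, the brightest (6.52), overlapped and differed by -0.17 (limma adjusted p = 0.868). Ppara read 3.20, 3.69 and 2.89 in young mice and 3.55, 2.48 and 2.26 in aged mice, a difference of -0.49, with aged mouse 1 among the young values and a difference within row 1 of 0.29. Ppargc1a, which encodes PGC-1 alpha, differed by -0.02 with a 95% interval of -0.56 to 0.53 and by 0.18 within row 1, and its sign varied with the processing. In all, 11 of 15 regulators were lower, the median was -0.11, and 3 had an unadjusted p under 0.05 in limma (Esrra, Rxra and Rxrb), all lower. The same 3 (20%) had every aged mouse below every young mouse, beside 13.9% of all genes tested. Lpin1, a coactivator of PPAR alpha, had the most positive difference, 1.45 (1.31 within row 1), but only young mouse 3 was low (1.27 against 4.86 to 5.51 in the other mice).

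General mitochondrial content was read from 10 genes outside the pathway, such as Cs (citrate synthase) and Vdac1 (an outer membrane channel). Of these 9 were lower, with a median of -0.21 and 2 unadjusted p under 0.05, both lower (Cycs and Ndufa9). Relative to the young mean their median was -0.25, -0.17 and -0.24 in the aged mice, where the 10 oxidation genes had -0.07, -0.49 and -0.55. Most of the content genes were bright, and bright genes as a whole read lower in aged mouse 1. Among all genes with a mean signal of 6 to 8 the median was -0.25, -0.02 and -0.09. From 8 up it was -0.32, -0.03 and -0.10. In these ranges 70.7% and 88.4% of genes were lower in aged mice. The most negative content gene was Cycs, cytochrome c, at -1.33 (limma adjusted p = 0.287). It was -0.47 within row 1 and -0.91 as the mean of all its probes. The only positive content gene was Tfam, which maintains mitochondrial DNA, at 0.11 (0.05 within row 1). Over the 9 lists together, 72 of 92 genes were lower, none passed the threshold, 9 lower and 2 higher genes had an unadjusted p under 0.05, 17 genes (18.5%) had every aged mouse below every young mouse, and the median was -0.19. Over all genes tested 13.9% had every aged value below every young value, and 8.36% were lower at that unadjusted p. The first share was 17.0% in the signal range of the members and 22.5% at a mean signal of 6 to 8.

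The fibre and cell makeup of the samples was read from marker lists. The summed level of 8 general skeletal muscle markers was 5240 to 6289 in young mice and 4406 to 5560 in aged mice, which overlap. For slow fibres 7 of 8 markers were lower, with a median of -0.58, and 3 had every aged value below every young value. Their summed levels were 1385 to 1815 in young and 842 to 1278 in aged mice, which do not overlap. Several of these markers, such as Myl3 and Myh7, were bright. Among all genes tested, 70.7% were lower at a mean signal of 6 to 8 and 88.4% from 8 up, with medians of -0.12 and -0.16. Every aged value lay below every young value for 22.5% and 22.9% of them. The per-mouse median of the slow fibre markers was -0.31, -0.34 and -0.93 in the aged mice. For fast fibres 7 of 8 tested markers were lower, with a median of -0.19 and summed levels of 4908 to 5903 against 4103 to 5032. Among all genes tested with a mean signal of 8 or more, where most fast fibre markers lay, 88.4% were lower. Endothelial markers summed to 15.1 to 18.5 in young and 10.8 to 13.2 in aged mice, macrophage markers (5 tested) to 17.4 to 19.0 and 19.2 to 24.4, and adipocyte markers (6 tested) to 145 to 154 and 111 to 147. Of the 5 endothelial markers 3 were lower, while Pecam1 and Tek were higher (0.52 and 0.46). The tested macrophage markers were higher in 4 of 5 cases. Adipocyte markers were lower in 5 of 6, and their median was 0.13, -0.44 and -0.42 in the aged mice, which places aged mouse 1 apart from the other aged mice as in the 10 genes. Of the brown adipocyte markers, Ucp1 and Elovl3 were not among the genes tested. The other 2, Cox8b and Cidea, summed to 621 to 746 in young and 554 to 655 in aged mice. Nearly all of that sum was Cox8b, with log2 signals of 9.27 to 9.54 in young mice against 1.32 to 2.17 for Cidea. The cell source of the Cox8b signal was not tested. The part of these differences in the levels of the 10 genes was not tested.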

How the data were processed

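Total RNA of the gastrocnemius of 3 young and 3 aged mice was labelled with Cy3 and hybridised to single-colour Agilent arrays, 1 for each mouse. The authors deposited the scanner output of each array, whose processed signal is a linear intensity from which background and spatial trends had been removed array by array, with no scaling to the other arrays. The series matrix repeated these values. The submitters' processing notes name Agilent Feature Extraction 9.5, whereas the file headers give 11.0.1.1.

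Of 62976 spots per array, 59305 were not controls. Flagged spots (161 to 212 per array) were left out, spots of a probe were averaged on the log2 scale and each array was set relative to its 75th percentile. Accessions were matched, without versions, to RefSeq on GRCm38.p6, which named 28331 of 55681 probes. The array design predates this build, so no probe coordinates are given. The 28002 probes that were well above background on 3 or more arrays were kept, and a gene was represented by its brightest kept probe without saturation, which left 20900 genes, 13843 of them named. The age groups were set against each other in limma 3.58.1 (R 4.3.3, lmFit and eBayes). The model held an intercept and age, p-values were adjusted by Benjamini-Hochberg across the 20900 genes, the threshold was 0.05, and the fit was tested on simulated data. At this threshold 53 genes passed. Signal over background and 3 mice per group set the precision, and p-values measure the spread between these mice only.

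The members, the lists and the motifs were chosen with earlier results of these data known. The genes named are the 10 members, the genes of each list with the largest and the smallest difference, 10 genes fixed by name (Ppara, Ppargc1a, Esrra, Acads, Acaa2, Etfa, Etfb, Cpt1a, Cd36 and Ucp3), and the 5 genes most like the mean member profile. Some of these genes are not reported here. Other genes were named after their values were seen. Promoter sequences are RefSeq windows on GRCm38.p6. Alternatives covered normexp on median spot and background signals (offset 50), quantile and median scaling, the percentile over detected probes, other filters on dim probes, averaging all probes per gene, a trend of variance with mean, array weights, the row on the slide or the replicate number as a block, the series matrix and leaving out each mouse. The metabolite, lipid and staining measurements of the study are not analysed here.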

Additional observations from a re-analysis of the deposited data

How the results depend on the processing

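In none of 18 alternatives did any of the 10 genes, or any other of the 34 genes analysed by name, pass the threshold in limma (lowest adjusted p of a member 0.131), and 6 to 10 of the 10 genes were lower in aged mice. The median of the 10 genes lay between -0.59 and -0.29 in all alternatives except the slide row as a block, where it was -0.0653. That fit leaves aged mouse 1 as the only aged mouse compared within a row. The median of the 10 genes stayed at -0.44 with the series matrix, the variance trend, the replicate block and the other filters on dim probes. These settings left the log2 difference of each member unchanged. Median scaling moved the median of all genes from -0.06 to -0.21. Both scalings subtract 1 value per array, so the median of the 10 genes stood 0.38 below that of all genes under both by construction.

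With the row as a block the list medians were 0.16 for uptake and activation, -0.0430 for the other beta-oxidation enzymes, 0.35 for triglyceride storage, 0.0267 for ketone body use and 0.18 for the regulators, and the differences that turned were Acadl 0.0652, Hadha 0.43, Hadhb 0.11, Ppara 0.29, Ppargc1a 0.18, Etfa 0.0453, Cpt1a -0.0951, Cd36 0.16, Ucp3 -0.92, Acad10 0.0657 and Acot1 0.0169. The cause was not tested. Other list medians that moved were those of mitochondrial content (-0.0392 with quantile normalization, -0.35 with median scaling), peroxisomal oxidation (-0.32 with median scaling) and thioesterases and uncoupling (-0.36 with array weights). Differences also turned with normexp (Hadha 0.0337, Cpt1a -0.0241, Acad10 0.00442, Tfam -0.0486), quantile normalization (Ppargc1a 0.0140), median scaling (Cpt1a -0.12, Tfam -0.0356), the percentile over detected probes (Ppargc1a 0.0173, Acad10 0.00693), the mean of all probes (Cpt1a -0.22) and array weights (Ppargc1a 0.0327, Cpt1a -0.0902, Ucp3 -0.0650).

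Leaving out each mouse in turn gave ranges of -0.35 to 0.11 for Hadha, -0.0998 to 0.66 for Slc25a20, -0.22 to 0.11 for Ppargc1a, -0.15 to 0.29 for Cpt1a, -0.0862 to 0.0146 for Acad10, -0.85 to 0.94 for Ucp3, -0.53 to 0.17 for the median of the thioesterases and uncoupling proteins and -0.44 to -0.10 for that of ketone body use. In all, 37 of 612 differences of named genes turned. These 612 include settings that left each log2 difference of these genes unchanged, so that none could turn there. They were the series matrix, which repeated the values, the variance trend, the replicate block and the other filters on dim probes. The share that turned is therefore not a measure of stability.

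Over all genes, 53 passed the threshold. The number was 8 without a filter on dim probes, 35 with probes detected on every array, 194 with array weights and from 1 (without aged mouse 3) to 199 (without aged mouse 1) when a mouse was left out. It was 8 to 9 without young mouse 1, 2 or 3 or aged mouse 2. Of the 53, 41 were higher in aged mice (77.4%), which was 63.3% with normexp, 61.9% with median scaling, 68.0% with array weights, 53.7% with the row as a block and 53.8% without aged mouse 1. It was 100% without a filter, with the replicate block and when a young mouse or aged mouse 3 was left out, and 88.9% without aged mouse 2, over 9 genes or fewer. With the replicate number as a block 5 genes passed and no call on the 10 genes differed. Same-numbered mice did not deviate together (correlations of deviations -0.0625, -0.27 and 0.0277), so the numbers were not taken as pairs. The slide could not be a block, since there was 1.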
